A study of Homo sapiens with 4 samples.

Results

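Golgins are long coiled-coil proteins that stand out from the Golgi membrane and catch passing transport vesicles, and GRASP proteins link Golgi cisternae into stacks. The 10 genes described here are GOLGA1, GOLGA2, GOLGA3, GOLGA4, GOLGA5, GOLGB1, GCC1, GCC2, TRIP11 and GORASP2, found by symbol among the 20323 gene rows of the files. Each symbol had 1 row, and all 10 were among the 12560 genes kept after the filter on low counts. The list was put together with earlier results of these data known, so its make-up supports no statement about its direction.

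The values are ribosome footprint counts from HCT-8, a line from a human colorectal adenocarcinoma, made resistant to the drug 5-fluorouracil. Cells were transfected with negative control plasmids (NC) or with plasmids that overexpress METTL14 (OE), an RNA-binding subunit of the enzyme that writes N6-methyladenosine on messages, and all received cycloheximide at 100 ug/mL, which holds ribosomes in place. Each group had 2 libraries, from experiments that the series' text describes as independent; whether the plasmids were expressed in every cell and whether 1 clone was used are not stated in the labels. How much of a message there is and how densely ribosomes load it cannot be told apart here, as no library of total RNA was analysed. In bulk cells, fewer cells with a message and less message per cell cannot be told apart either.

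The Golgi is polarised, and golgins sit at set places in it. At the cis face, which receives cargo from the endoplasmic reticulum, GM130 (GOLGA2) and GMAP-210 (TRIP11) act as tethers, and further in GRASP55 (GORASP2) joins medial cisternae. Giantin (GOLGB1) and golgin-84 (GOLGA5) are anchored in the rims by membrane-spanning segments, and golgin-160 (GOLGA3) lies on cis and medial membranes. At the trans side, golgin-97 (GOLGA1), golgin-245 (GOLGA4), GCC88 (GCC1) and GCC185 (GCC2) attach through a GRIP domain at their C-terminal end, which for golgin-97 and golgin-245 binds the small GTPase ARL1. GM130 is also held at the membrane by GRASP65 (GORASP1) and binds the tether p115 (USO1).

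Golgi genes are known to be induced together under Golgi stress through an element in their promoters, ACGTGGC, which the factor TFE3 binds. RefSeq's promoter windows of build GRCh38.p14 run from 250 bases before to 50 after each start. They matched 9 of the 10 genes, all but GOLGA4, with 11 windows in all. The element was found on either strand in 4 of these windows, belonging to GOLGA1, GOLGA3, GOLGA5 and GORASP2, and in 3.22% of all 35116 windows. The 250 bases before the start are shown for the 3 genes in which the element lies there. GOLGA1 lies on the minus strand (chr9:124941084-124941333), and GOLGA5 (chr14:92794055-92794304) and GORASP2 (chr2:170929003-170929252) on the plus strand. Sequences run 5′ to 3′ on the strand of the gene, and capitals mark the element or its reverse complement, GCCACGT.
GOLGA1: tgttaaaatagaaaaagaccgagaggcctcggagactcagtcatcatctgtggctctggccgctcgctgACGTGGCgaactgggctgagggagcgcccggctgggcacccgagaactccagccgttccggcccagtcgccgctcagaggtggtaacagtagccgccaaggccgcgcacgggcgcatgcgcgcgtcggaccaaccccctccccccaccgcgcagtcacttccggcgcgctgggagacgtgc
GOLGA5: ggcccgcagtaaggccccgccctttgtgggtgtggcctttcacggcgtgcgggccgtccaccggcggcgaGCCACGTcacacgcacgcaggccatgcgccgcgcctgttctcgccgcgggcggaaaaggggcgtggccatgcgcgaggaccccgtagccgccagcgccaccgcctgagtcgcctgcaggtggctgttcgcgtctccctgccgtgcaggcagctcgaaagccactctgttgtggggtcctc
GORASP2: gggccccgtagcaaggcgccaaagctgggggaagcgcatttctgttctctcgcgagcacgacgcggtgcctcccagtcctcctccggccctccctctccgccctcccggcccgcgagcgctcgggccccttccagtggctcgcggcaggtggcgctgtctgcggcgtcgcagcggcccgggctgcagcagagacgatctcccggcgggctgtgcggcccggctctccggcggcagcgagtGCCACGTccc
The palindrome CACGTG, which can overlap the element by its last 5 letters, was in none of the 11 windows and in 7.26% of all. The TATA box TATAAA was also in 0 of the 11 windows, against 11.5% of all. The GC box GGGCGG was in 8 of 11 windows, against 45% of all, and CCAAT in 3, against 34.6%. More than 1 of the GC box windows belonged to GOLGA3. The GC content of the 11 windows ran from 55.7% to 73.7%, beside a median of 58.7% in all windows. Its part in these counts was not tested. Each string was searched on both strands, and a match is a run of letters in the reference, not a measured binding site.

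Total estimated counts ran from 7742274 in OE replicate 1 to 24392875 in OE replicate 2, with 21846389 and 18707758 in NC. Pearson's correlation between the NC libraries was 0.983 in log2 CPM (counts scaled to library size, after TMM adjustment) across 12560 genes, against 0.863 for the OE libraries; genes are no independent replicates. METTL14 stood at 44.5 and 47.6 CPM in the NC pair, 448 CPM for OE replicate 1 and 91.2 CPM for OE replicate 2. In OE replicate 1 genes of high NC level had fewer footprints than in NC and genes of low level more, with median log2 differences from 1.17 in the lowest decile to -1.08 in the highest, so this library stands apart. Of 12 colorectal epithelial markers, 11 were above 1 CPM in some library. The summed level of the 12 was 21960 and 21328 CPM in the NC pair, 6282 in OE replicate 1 and 24779 in OE replicate 2. Most of it came from the keratins KRT8, KRT18 and KRT19, whereas KRT20 and GPA33 reached at most 1.45 and 3.90 CPM. Summed levels were 9.84 and 10.3 CPM in the NC pair and 6.66 and 2.98 CPM in the OE pair for 8 fibroblast markers (2 at 0 and 6 under 1 CPM in every library), and 83.9 and 87.6 CPM in the NC pair and 45.0 and 33.4 CPM in the OE pair for 8 immune markers (2 at 0), most of it CD68. Of 5 endothelial markers 3 were at 0 in every library and the sum was at most 0.410 CPM. The part of these markers in the results was not tested.

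Over all genes, edgeR's quasi-likelihood test, Benjamini-Hochberg adjusted, called 0 of 12560 genes at an adjusted p below 0.05 (percent called 0). At an unadjusted p below 0.05 it counted 691 genes, or 5.50%, and the DESeq2 Wald test called 25 genes. None of the 10 golgins and tethers was called by either test. The levels of several in single libraries were nevertheless far apart, and the pattern differed by gene: GM130 was low in both OE libraries, and golgin-245, golgin-160 and golgin-84 were high in one and low in the other. Estimated counts of the 10 genes ran from 242 to 4445 per library. Levels of different genes are not compared, because counts grow with the length of the coding sequence and no coding lengths were used here.

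**Figure D1:**
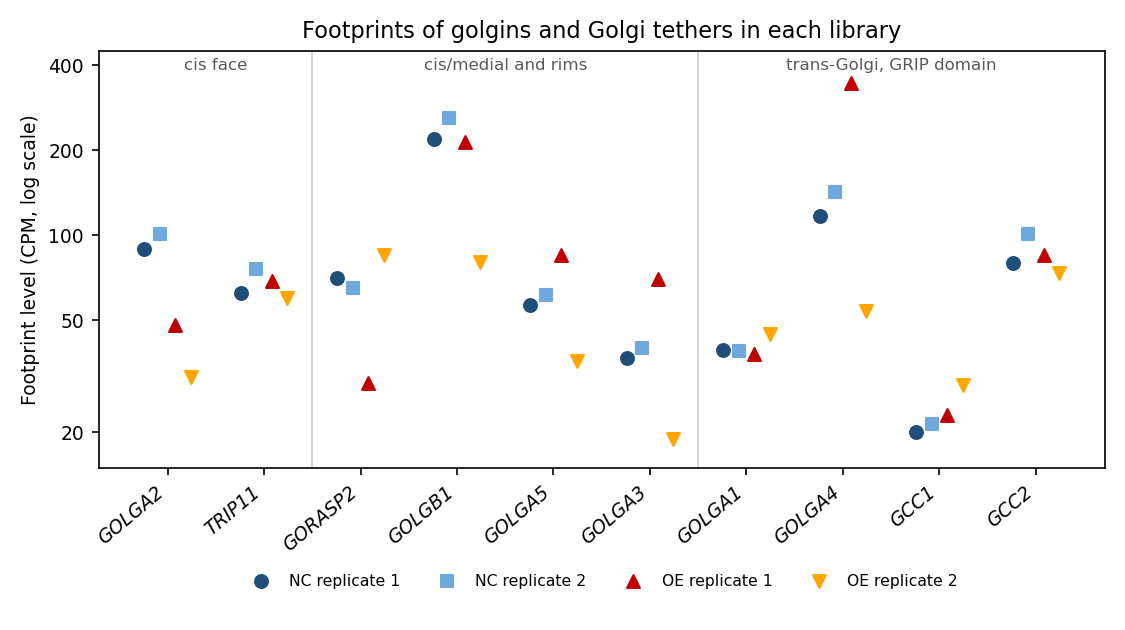
Footprint level (CPM, log scale) of the 10 genes in each of the 4 libraries, grouped by place in the Golgi; each point is 1 library. GOLGA2 lies below both NC libraries in both OE libraries, at 48.2 and 31.4 CPM, whereas GOLGA4 spans 53.7 to 345 CPM across the OE libraries.

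GOLGA2 (ENSG00000167110), the cis-Golgi tether GM130, had 89.2 and 101 CPM in the NC pair, 48.2 CPM for OE replicate 1 and 31.4 CPM for OE replicate 2. Both OE libraries thus lay below both NC libraries, at ratios to the NC mean of 0.506 and 0.330. They averaged 95.2 ± 8.44 CPM in the NC pair and 39.8 ± 11.8 CPM in the OE pair (SD, n = 2 libraries each). The log2 fold change was -1.26 (SE 0.36, 95% interval -2.18 to -0.34), with an adjusted p = 0.734 by edgeR's quasi-likelihood test (0.0167 before adjustment), so it did not pass over all genes. It lay between -1.60 and -0.98 over the fits that leave out 1 library. All 4 estimated counts of GOLGA2 held fractions, the mark of reads shared out between similar sequences. Fractions were also present in 3 libraries for GOLGA3 and in 1 for GOLGB1. The 29 rows of the related GOLGA6 and GOLGA8 families, picked after the values were seen, summed to 16.7 and 21.1 CPM in the NC pair, 131 CPM for OE replicate 1 and 15.4 CPM for OE replicate 2. Their part in the GOLGA2 values was not tested.

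GORASP2, which encodes GRASP55, had 70.6 and 65.1 CPM in the NC pair, 30.0 CPM for OE replicate 1 and 85.2 CPM for OE replicate 2. It was low in the first OE library and high in the second, the reverse order of most golgins. Its log2 fold change was -0.23 (SE 0.55, 95% interval -1.63 to 1.16; adjusted p = 0.909 by edgeR's quasi-likelihood test). TRIP11, the cis tether GMAP-210, had 62.5 and 75.7 CPM in the NC pair and 68.8 and 59.9 CPM in the OE pair. One OE library lay between the NC libraries and the other just below them. Its log2 fold change of -0.10 (95% interval -0.90 to 0.69) became 0.25 when only library totals were used for scaling, a setting that raised the median of all genes from 0.09 to 0.40.

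Giantin, the product of GOLGB1, had 218 and 261 CPM in the NC pair, 213 CPM for OE replicate 1 and 80.0 CPM for OE replicate 2. The first OE library was just under the lower NC library, with exact Poisson 95% limits of 204 and 222 CPM that include it, while the second stood at 0.334 of the NC mean. The intervals cover counting error only. GOLGB1 is therefore counted as lower in both OE libraries on the strength of 1 of them. The log2 fold change was -0.71 (SE 0.57, 95% interval -2.16 to 0.74; adjusted p = 0.751 by edgeR's quasi-likelihood test), moving to -1.58 if OE replicate 1 is left out and to -0.17 if OE replicate 2 is.

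GOLGA5 and GOLGA3 shared a pattern of more footprints in OE replicate 1 and fewer in OE replicate 2. GOLGA5, the rim protein golgin-84, had 56.3 and 61.2 CPM in the NC pair, 85.2 CPM for OE replicate 1 and 35.7 CPM for OE replicate 2. GOLGA3, golgin-160, had 36.6 and 39.7 CPM in the NC pair, 69.9 CPM for OE replicate 1 and 19.0 CPM for OE replicate 2. In both genes the NC libraries lay between the OE libraries, which differed 2.39-fold for GOLGA5 and 3.68-fold for GOLGA3. Over both OE libraries the log2 fold changes were 0.04 (95% interval -1.20 to 1.28) and 0.22 (95% interval -1.41 to 1.85), and neither passed.

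Golgin-245 (GOLGA4), a trans-Golgi tether, showed the widest gap between OE libraries of the 10 genes. It had 116 and 142 CPM in the NC pair, 345 CPM for OE replicate 1 and 53.7 CPM for OE replicate 2, a 6.42-fold difference between the OE libraries. Exact Poisson 95% limits were 334 and 356 CPM for OE replicate 1 and 50.7 and 56.9 CPM for OE replicate 2. The log2 fold change of 0.62 (SE 0.87, 95% interval -1.60 to 2.84; adjusted p = 0.849 by edgeR's quasi-likelihood test) is a mean of opposite values, 1.42 for OE replicate 1 and -1.26 for OE replicate 2, each against the NC mean in log2 CPM. The pattern of OE replicate 1 above both NC libraries and OE replicate 2 below both held for 3 of the 10 genes (GOLGA3, GOLGA4 and GOLGA5), and for 19.2% of all genes tested. The reverse pattern held for GORASP2 and, within counting error in OE replicate 1, for GOLGA1, 2 of the 10, and for 19.8% of all genes.

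The other GRIP golgins varied less. GOLGA1, golgin-97, had 39.1 and 38.8 CPM in the NC pair and 37.9 and 44.7 CPM in the OE pair, a log2 fold change of 0.08 (95% interval -0.66 to 0.83; 0.39 when scaled by library totals alone). The exact Poisson 95% limits of its first OE library, 34.3 and 41.8 CPM, include both NC libraries. GCC1, the trans-Golgi protein GCC88, had 20.1 and 21.4 CPM in the NC pair and 23.0 and 29.5 CPM in the OE pair. It was the member above both NC libraries in both OE libraries, but the exact Poisson 95% limits of the first, 20.2 and 26.1 CPM, include the higher NC library. The log2 fold change was 0.34 (SE 0.30, 95% interval -0.42 to 1.10; adjusted p = 0.766 by edgeR's quasi-likelihood test), and 0.63 when scaled by library totals alone. GCC2, which encodes GCC185, had 79.5 and 101 CPM in the NC pair and 85.0 and 73.7 CPM in the OE pair, a log2 fold change of -0.18 (95% interval -1.01 to 0.64) (0.17 when scaled by library totals alone). The NC libraries themselves differed by -0.34 in log2 CPM for GCC2, replicate 1 minus replicate 2, more than for any of the other 9 genes. Counts of GCC2 also held fractions in all 4 libraries, and the 7 RGPD rows, a family with a related GRIP domain that was picked after the values were seen, summed to 43.8 and 57.9 CPM in the NC pair and to 103 and 18.7 CPM in the OE pair. The part of that family in the GCC2 value was not tested.

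**Figure D2:**
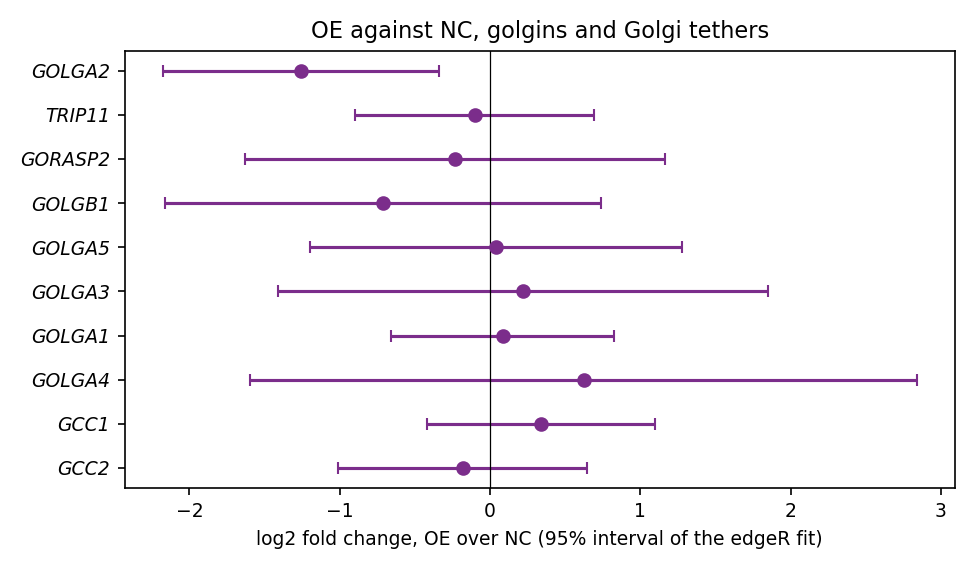
Log2 fold change of OE over NC with its 95% interval from the edgeR fit for each of the 10 genes (n = 2 libraries per group). The interval of GOLGA2, from -2.18 to -0.34, lies below 0 before adjustment over all genes, and that of GOLGA4 is the widest, from -1.60 to 2.84.

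Counted over the list, 2 of 10 genes (GOLGA2 and GOLGB1) were in both OE libraries below either NC library, against 20.4% of all genes tested, and 1 (GCC1) was higher in both, against 19.9%. Both counts are near the share of all genes. In OE replicate 1, 4 genes were below both NC libraries (45.5% of all genes) and 4 above both (46.7%). OE replicate 1 exceeded OE replicate 2 in 7 of the 10 genes, against 51.4% of all genes. In OE replicate 2, 7 were below both NC libraries (42.5% of all genes) and 3 above both (42.8%). Relative to the NC mean, the 10 genes had a median log2 difference of -0.02 for OE replicate 1 and -0.50 for OE replicate 2, beside 0.02 and 0.00 for all genes, and the median of the fitted log2 fold changes was -0.03, beside 0.09. The 4 genes in whose windows the element ACGTGGC was found did not share a pattern, and GOLGA4 had no window to search. GOLGA3 and GOLGA5 were high in OE replicate 1 and low in OE replicate 2. GORASP2 was low in the first and high in the second, and GOLGA1 differed from the NC mean by -0.04 and 0.20 in log2 CPM.

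**Figure D3:**
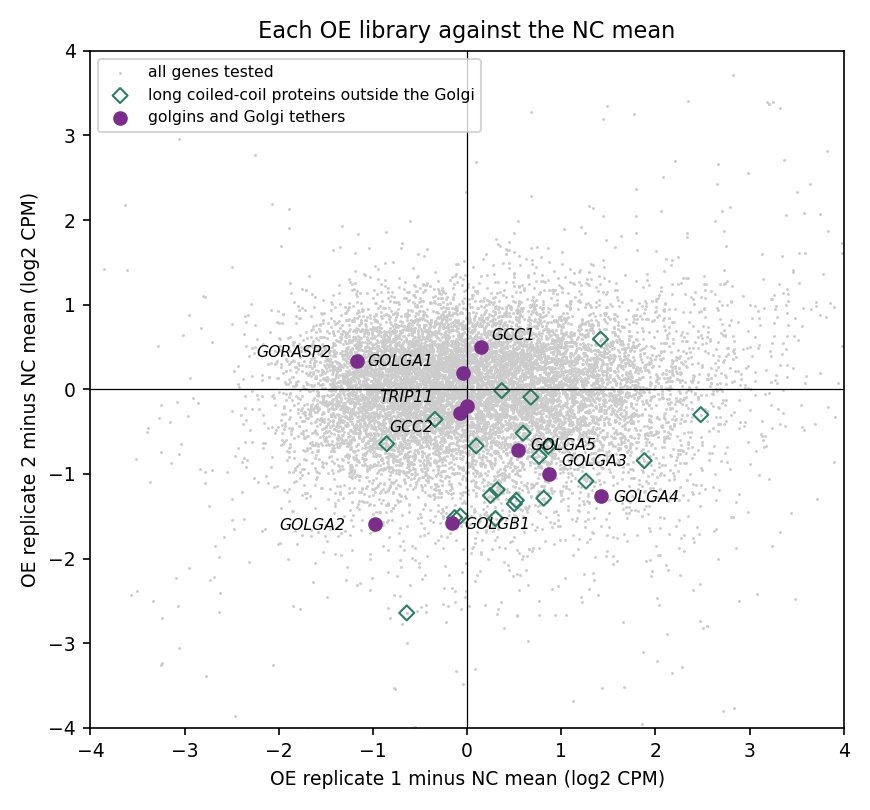
Difference from the NC mean in log2 CPM for OE replicate 1 (x axis) and OE replicate 2 (y axis); grey points are the genes tested, of which 73 lie outside the axes, and both axes share the NC libraries. GOLGA4, GOLGA3 and GOLGA5 lie at lower right, GORASP2 at upper left, and GOLGA2 at lower left with -0.98 and -1.59.

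Set beside genes of like NC level, the members took other places. In OE replicate 1 GOLGA4 lay 2.07 above the median log2 difference of its decile of genes, at percentile 98.7 of that decile. GOLGA3 lay 1.00 above it, GOLGB1 0.92 and GOLGA5 0.87, so GOLGB1, at -0.16 against NC, was below NC by less than most genes of its level. GORASP2 lay 0.84 below, and GOLGA2 0.33 below. In OE replicate 2, where medians stayed between -0.09 and 0.07 in every decile, GOLGA2 lay 1.53 below the median of its decile, at percentile 0.955. GOLGB1 lay 1.50 below at percentile 2.39, GOLGA4 1.20 below and GOLGA3 1.01 below. GCC1 was 0.44 above, and GORASP2 0.32. These percentiles describe 2 libraries and were not tested.

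**Figure D4:**
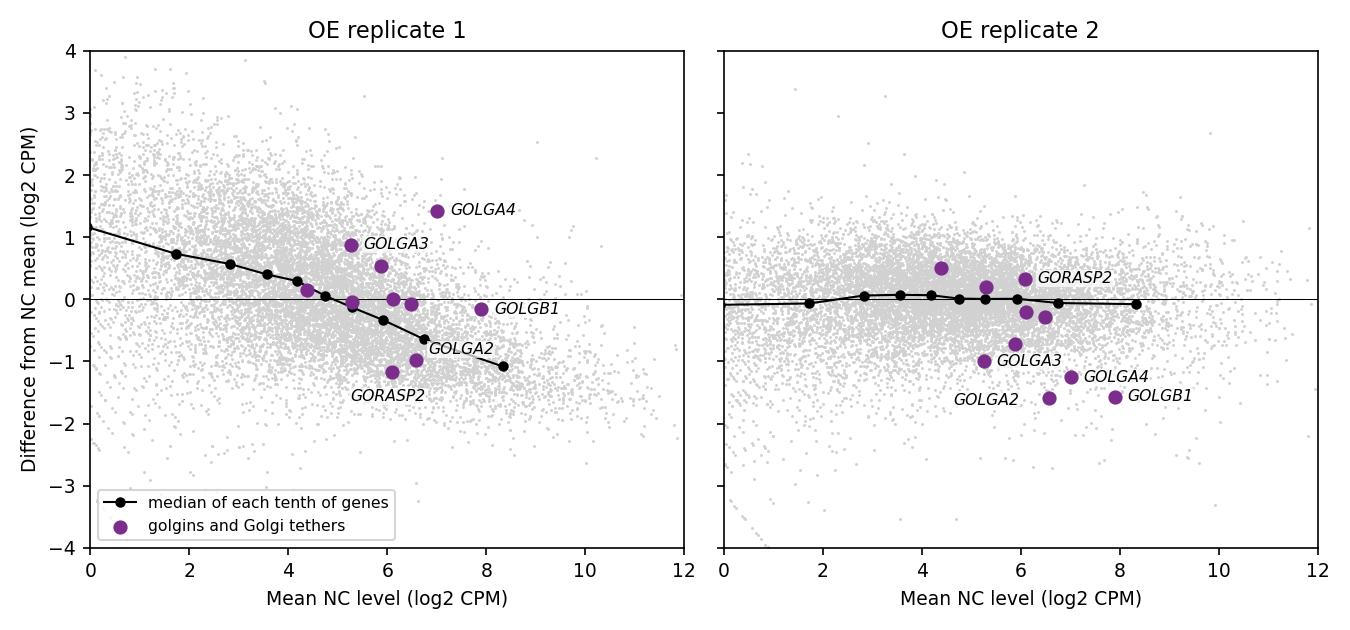
Difference of each OE library from the NC mean (y axis, log2 CPM) against the mean NC level (x axis, log2 CPM); black points are medians of the deciles of genes by NC level, and purple points are the 10 genes; 752 genes lie outside the axes of at least 1 panel. Medians slope from 1.17 to -1.08 in OE replicate 1 and stay near 0 in OE replicate 2, where GOLGA2 and GOLGB1 lie more than 1 log2 unit below them.

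With only 1 OE library kept, edgeR's quasi-likelihood test called more genes, since the spread then comes from the NC pair alone. Without OE replicate 1 it called 5 of the 10 as lower (17.0% of all genes) and 1 as higher (16.5%): GOLGB1, GOLGA2, GOLGA4, GOLGA3 and GOLGA5 were lower and GCC1 higher. Without OE replicate 2 it called 2 as lower (30.7% of all genes) and 3 as higher (30.5%): GOLGA2 and GORASP2 were lower, and GOLGA4, GOLGA3 and GOLGA5 higher. GOLGA2 was called in the same direction in both fits, with log2 fold changes of -1.60 (adjusted p = 3.13e-08) and -0.98 (adjusted p = 7.01e-06). GOLGA4, GOLGA3 and GOLGA5 were called in opposite directions, GOLGA4 with -1.27 and 1.42 (adjusted p = 7.55e-07 and 3.95e-10). Over all other settings tried, the adjusted p lay between 0.470 (DESeq2 Wald test) and 1.00 (edgeR without NC replicate 2) for GOLGA2, and between 0.646 (edgeR scaled by library totals alone) and 1.00 for GOLGA4. These fits assume that the lone OE library varies like the NC libraries, and they share those libraries.

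Among 10 other Golgi matrix proteins, 4 lay below NC in both OE libraries (20.4% of all genes) and 3 above it (19.9% of all genes), with a median log2 fold change of -0.19 and 0 called by edgeR. GORASP1, the GM130-binding GRASP65, had 12.9 and 17.4 CPM in the NC pair and 29.2 and 31.3 CPM in the OE pair, a log2 fold change of 1.00 (unadjusted p = 0.0232, adjusted p = 0.734 by edgeR's quasi-likelihood test). It lay higher in both OE libraries, the opposite side from GOLGA2. USO1, the p115 tether that binds GM130 and giantin, was chosen for this role after its values were seen, and had 120 and 127 CPM in the NC pair and 77.4 and 88.1 CPM in the OE pair (log2 fold change -0.58). GORAB, a golgin that binds a COPI scaffold, had 2.99 and 2.81 CPM in the NC pair and 8.28 and 6.47 CPM in the OE pair, and ACBD3, a giantin-binding protein, had a log2 fold change of -0.62. Of these 4 genes, GORASP1 and GORAB lay above NC in both OE libraries, and USO1 and ACBD3 below.

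Multisubunit tethers (the COG, GARP and TRAPP complexes) had a median log2 fold change of -0.06 over 26 genes, of which 1 was lower in both OE libraries (3.85%, against 20.4% of all genes) and 3 higher (11.5%, against 19.9%). TRAPPC2, with the smallest p among them, had 4.48 and 2.34 CPM in the NC pair and 14.6 and 5.11 CPM in the OE pair. Small GTPases that recruit golgins, with a receptor of one of them, had a median of -0.27 over 16 genes, with 4 lower in both (25%, near the 20.4% of all genes) and 1 higher (6.25%, against 19.9%). By library, their medians stood at -0.85 (OE replicate 1) and 0.06 (OE replicate 2). Genes of high NC level were low in OE replicate 1 in general, with a median of -1.08 in the highest decile. ARL1, the anchor of golgin-97 and golgin-245, had 188 and 221 CPM in the NC pair and 52.3 and 134 CPM in the OE pair (log2 fold change -1.13, SE 0.54, adjusted p = 0.734 by edgeR's quasi-likelihood test). It was lower in both OE libraries, whereas GOLGA1 and GOLGA4 overlapped between the groups. Golgi SNAREs, which fuse the tethered vesicles, had a median of 0.29 over 13 genes, with 1 lower in both (7.69%, against 20.4% of all genes) and 3 higher (23.1%, against 19.9%). STX16, a trans-Golgi syntaxin, had 11.5 and 14.9 CPM in the NC pair and 61.7 and 14.2 CPM in the OE pair.

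Glycosylation enzymes and the trans-Golgi protein TGOLN2 were the Golgi list with the largest share of genes on one side among those compared. Of 18 genes, 10 were lower in both OE libraries (55.6%, against 20.4% of all genes) and 0 were higher, with a median log2 fold change of -0.42. Most had NC levels at which OE replicate 1 was low in general, with decile medians from -0.34 to -1.08. In OE replicate 2, 15 were below both NC libraries (42.5% of all genes) and 0 above both (42.8%). The part of level in these counts was not tested. GALNT7, GALNT2 and GALNT3, which start O-linked glycans, had log2 fold changes of -0.84, -0.84 and -0.57. GALNT7 had 147 and 146 CPM in the NC pair and 71.9 and 92.4 CPM in the OE pair, below NC in both libraries. By edgeR's quasi-likelihood test 0 of the 18 were called after adjustment over all genes and 0 had an unadjusted p below 0.05; the smallest unadjusted p was 0.0537.

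**Figure D5:**
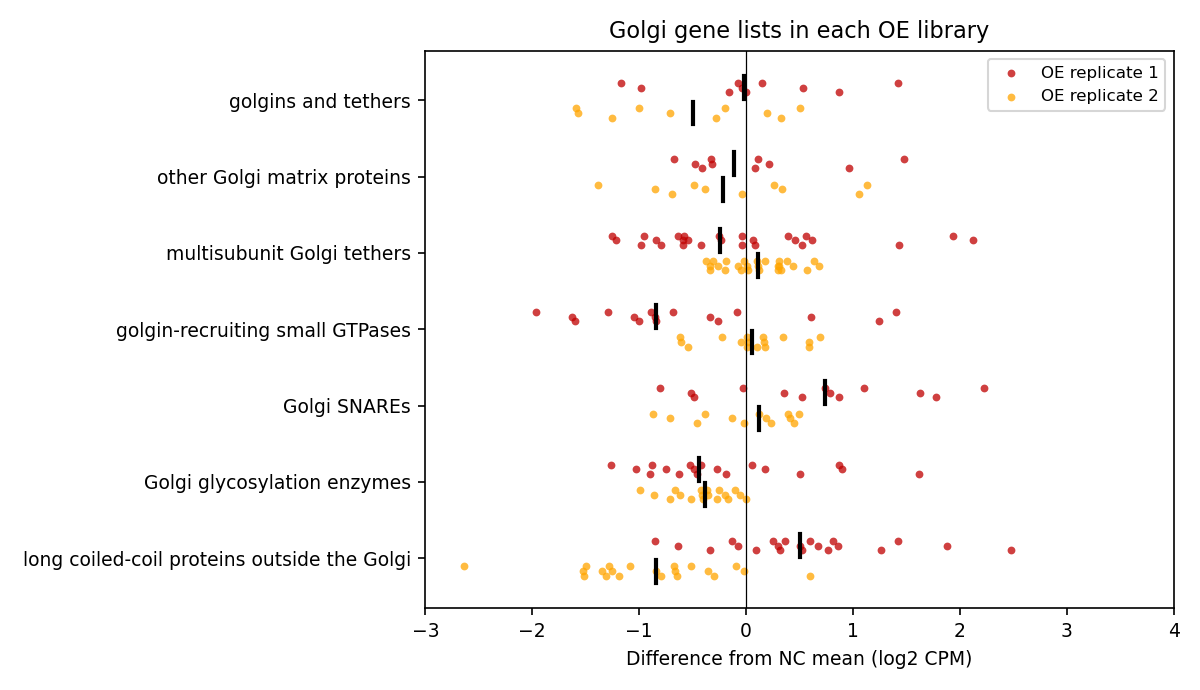
Difference from the NC mean (log2 CPM) of every tested gene of 7 lists in OE replicate 1 (red) and OE replicate 2 (orange); each point is 1 gene and black bars are list medians. The medians of the golgins and tethers are -0.02 and -0.50. Those of long coiled-coil proteins other than golgins, labelled as outside the Golgi, are 0.50 and -0.84.

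Golgins share their rod-like coiled-coil build with other large proteins, such as those of the centrosome, nucleus and cytoskeleton. A list of 21 long coiled-coil proteins other than golgins, not limited to these places, was set beside them. In OE replicate 2, 19 of the 21 lay below both NC libraries (42.5% of all genes), and in OE replicate 1, 16 lay above both (46.7% of all genes). OE replicate 1 above and OE replicate 2 below, the pattern of GOLGA3, GOLGA4 and GOLGA5, was found in 14 of the 21, against 19.2% of all genes. No difference between the 2 lists was tested. The members of that list with the smallest p were CEP152, a centriole duplication factor with a log2 fold change of 1.06, EEA1, an endosomal tether with -0.75, and the centrosomal NINL with 1.70. NINL had 2.52 and 2.11 CPM in the NC pair and 13.4 and 1.85 CPM in the OE pair, and its log2 fold change turned to -0.32 without OE replicate 1. EEA1, the vesicle tether among them, had 64.8 and 79.5 CPM in the NC pair and 39.7 and 45.9 CPM in the OE pair. It was 1 of 5 genes of that list lower in both OE libraries (23.8%, near the 20.4% of all genes). In the same list 1 gene was higher in both (4.76%, against 19.9% of all genes). None passed the adjusted threshold by edgeR's quasi-likelihood test.

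The genes whose log2 CPM profile over the 4 libraries, centred on its mean, lay nearest to the mean profile of the 10 golgins and tethers were TNRC18, ARHGEF7, TTC13, AFF4 and LARS1. Their Euclidean distances to it ran from 0.0586 to 0.0706, among 8969 genes with a mean of at least 10 CPM. The members themselves lay farther from their own mean, from 0.326 for GCC2 to 1.52 for GORASP2. The mean profile was 0.05 and 0.20 in NC, 0.18 in OE replicate 1 and -0.43 in OE replicate 2, so OE replicate 2 stood lowest.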

How the data were processed

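Ribosome footprint libraries of 5-FU-resistant HCT-8 cells, 2 NC and 2 OE, were grouped and numbered by their titles. The authors deposited 1 estimated count per Ensembl gene and library, per the file headers; fractions made up 13.8% to 14.7% of a library's values. Per the submitters' processing notes, RSEM, StringTie, HISAT2, Bowtie2 and fastp were used with build hg18. Tool versions, the annotation and the strand setting were not given in the sources used here. Genes that overlap or are nearly identical in sequence may therefore share reads.

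Counts were rounded and analysed in R 4.3.3 with edgeR 4.0.16 and DESeq2 1.42.0. filterByExpr (minimum count 10, minimum total 15, proportion 0.7) kept 12560 of 20323 genes. edgeR's quasi-likelihood test compared OE with NC over all genes, with TMM scaling and Benjamini-Hochberg adjustment at 0.05. Log2 CPM used a prior count of 2. A count of 0 allows up to 3 counts, between 0.136 and 0.286 CPM by library. Replicates differed beyond sampling noise (chi-square of 13.0 per degree of freedom for NC and 330.1 for OE). Of these steps only the edgeR fit was tested on simulated data, which lacked the level trend of OE replicate 1.

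The 10 members, the other gene lists and the tests were chosen with earlier results of these data known. Genes outside the list were named by smallest p, up to 3 per list, or by likeness of profile; exceptions are stated. Levels per coding length, planned at first, were not computed, as no coding lengths were used here. Promoter windows are RefSeq's (GRCh38.p14), whose coordinates are not those of the deposited build.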

Additional observations from a re-analysis of the deposited data

How the results depend on the processing

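Over the fits without 1 library, the count of genes called by edgeR's quasi-likelihood test ran from 3 to 7684, the called golgins and tethers from 0 to 6, and their median log2 fold change from -0.50 to 0.0466. Ranges of log2 fold changes over these fits were -1.60 to -0.98 for GOLGA2, -1.58 to -0.17 for GOLGB1, -1.27 to 1.42 for GOLGA4, -1.004 to 0.87 for GOLGA3, -0.72 to 0.54 for GOLGA5, -1.18 to 0.33 for GORASP2, -0.04 to 0.20 for GOLGA1, 0.15 to 0.51 for GCC1, -0.34 to -0.02 for GCC2, -0.24 to 0.0272 for TRIP11, -0.32 to 2.53 for NINL and 0.99 to 3.28 for METTL14. Scaled by library totals alone, the median of the 10 genes was 0.32, and all genes moved with it, to a median of 0.40. Under that scaling GCC1 had 0.63, GOLGA1 0.39, TRIP11 0.25 and GCC2 0.17. Each of these named genes lay farther from its main value than without either OE library. The median of the 10 genes moved farther without OE replicate 1, to -0.50 from -0.03 in the main fit. With a mean of at least 50 counts the median of the 10 was 0.0108, and without a filter GOLGA5 had -0.0073. With the replicate block 24 genes were called, none of the 10, and GOLGA3 and GOLGA5 had -0.0626 and -0.0899. The replicate numbers are not stated to mark shared experiments. The differences of replicate 1 from replicate 2 in NC and in OE had a correlation of -0.0974 across genes. With 2 libraries per group, that value cannot show whether libraries of the same number were paired. The DESeq2 Wald test called 25 genes, none of the 10, and gave METTL14 a log2 fold change of 2.54 (Benjamini-Hochberg adjusted p = 0.0495; between 1.14e-18 and 1.00 over the other settings). RLE scaling changed no direction among the genes named. The causes of these shifts were not tested. The order of levels per length was not run. Each of the 10 genes had at least 242 estimated counts in a library, and each group has 2 libraries.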
